A study of Homo sapiens with 6 samples.

Results

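Solute carriers are the membrane proteins that move ions, nutrients and metabolites across the plasma membrane and the membranes of organelles without hydrolysing ATP themselves. Their genes were taken from the count table by symbol (SLC, a family number, the letter A and a member number), with the mitochondrial SLC25 family, the SLC26 family and the genes SLC2A1, SLC2A3, SLC16A3 and SLC7A11 left out. This gave 140 genes in 43 families out of 12703 genes in the table. RefSeq lists 273 symbols of this kind, and the other 133 are not analysed here. The table had been filtered on low counts before deposit, since each of its genes reached at least 1.01 CPM (reads of the gene relative to the library total, scaled to a common depth) in its 3 highest libraries, so a carrier with reads in 1 group alone could be kept and a carrier silent in both could not. The carriers described are those that passed this filter and not all solute carriers.

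The RNA came from PC3 cells, an established line grown from a bone metastasis of a prostate cancer. In 1 group the cells carried GCNT1, delivered by lentiviral particles and stably overexpressed. In the other they had been transduced with the matching negative-control particles. Each group had 3 libraries, labelled as biological replicates, and the comparison asks which transcripts differ when GCNT1 is overexpressed. The study describes the samples of each group as 3 stable lines but does not say here whether they came from separate transductions, so the p values below measure the spread between these libraries. Total counts were 12755888, 12717300 and 12125672 in control libraries 1 to 3 and 11392213, 13411484 and 13825704 in GCNT1 overexpressing libraries 1 to 3.

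Solute carriers work as uniporters, as symporters that use the sodium or proton gradient, or as exchangers, and a cell's set of carriers sets which nutrients it can take up and how it holds its pH, volume and ion content. Some work only with a partner: the light chains SLC7A5 and SLC7A8 reach the cell surface bound to the heavy chain SLC3A2, and monocarboxylate carriers need basigin or embigin. Prostate epithelium is known for its high zinc content, held by zinc importers, and prostate tumours for amino acid uptake through LAT-type carriers. GCNT1 itself is the Golgi enzyme that adds the branching N-acetylglucosamine of core 2 O-glycans, and the nucleotide sugar carriers of the SLC35 family bring the sugar donors into the Golgi.

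GCNT1 had 9, 13 and 8 counts in control libraries 1 to 3 and 13, 16 and 35 counts in the overexpressing libraries. The highest control and the lowest overexpressing library both had 13 counts, and the third overexpressing library was well above the others. The log2 fold change (log2FC) of overexpressing over control cells was 0.98 ± 0.37 (standard error, SE), with an adjusted p value of 0.0362 (edgeR quasi-likelihood, Benjamini-Hochberg). Without overexpressing library 3 it was 0.49, with an adjusted p value of 0.269 by the same edgeR test. The group means differ in the direction of the labels, at low counts. The groups touch in counts and lie apart in CPM normalised by TMM (edgeR scaling factors for library composition), the nearest libraries being at 1.04 and 1.12 CPM. Whether these counts include reads of the delivered GCNT1 copy was not tested, so they are no measure of its level. Throughout, a gene was called higher or lower when its adjusted p value over all 12703 genes was under 0.05 and its log2FC was at least 0.58 in either direction, and values after ± are SE for log2FC and SD over 3 libraries for CPM.

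Of the markers fixed as present in the PC3 line, the keratins KRT8, KRT18 and KRT19, EPCAM and vimentin were all counted in both groups, with KRT8 at 2711 to 2725 counts in controls and 2582 to 2717 in overexpressing cells. KRT19 was called lower (log2FC −0.68). KLK3, listed as absent in PC3, was not in the table. Of the androgen-responsive luminal genes on the list, TMPRSS2 had 61, 49 and 45 counts in controls and 19, 27 and 23 in overexpressing cells and was called lower (log2FC −1.26), STEAP2 was not called, and KLK2, FOLH1 and ACPP were not in the table. Of 7 fibroblast markers 2 were in the table, COL3A1 being the one with more counts (log2FC −1.94), and their sum was 178, 126 and 156.8 CPM in controls against 43.03, 46.66 and 44.44 CPM. COL1A2, PDGFRA, PDGFRB, DCN and LUM were not in the table. Of 5 leukocyte markers only CD14 was in the table, at 446 to 525 counts over all 6 libraries and not called, and of 4 endothelial markers PECAM1 was called higher (log2FC 1.31) and KDR lower (−1.53) while CDH5 and VWF were not in the table. The endothelial sum was 148.1 to 166 CPM in controls and 47.7 to 63.4 CPM in overexpressing cells. The part of these shifts in the carrier values was not tested, and in bulk RNA fewer cells of a kind and less RNA per cell cannot be told apart.

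More carriers fell than rose in GCNT1 overexpressing cells. Of the 140 carriers, 41 (29.3%) were called, against 19.3% of all genes. Of these, 11 (7.86%) were called higher and 30 (21.4%) lower, where 8.28% and 11.1% of all genes were called higher and lower. Without the fold threshold the carriers were split evenly, with 48 (34.3%) significantly higher and 49 (35%) significantly lower by adjusted p value, beside 28.3% and 29.3% of all genes. The normalised values of the groups did not overlap for 100 carriers (71.4%), beside 62.5% of all genes, and 40 of the 41 called carriers were among them. The median log2FC of the carriers was −0.07 (0.00 over all genes) with the main settings, −0.0092 with library size alone and −0.10 to −0.028 leaving out 1 library. The median absolute log2FC was 0.35 (0.26 over all genes).

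Summed over all 140 carriers the level was 9438, 9299 and 9272 CPM in control libraries 1 to 3 and 9587, 9795 and 9846 CPM in overexpressing libraries 1 to 3, so that the total was slightly higher in overexpressing cells although more carriers were called lower. Abundant carriers weigh most in such a sum. Amino acid carriers alone summed to 3302, 3274 and 3247 CPM in controls and 3737, 3920 and 3955 CPM in overexpressing cells, whereas inorganic ion carriers summed lower in overexpressing cells.

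Grouped by what the families carry, inorganic ion carriers held 8 of the 30 falls and organic acid, organic ion and peptide carriers 7. Amino acid carriers had 3 called higher and 6 lower of 26, metal and haem carriers 1 and 3 of 25, carriers of vitamins, nucleosides, lipids, choline and urea 2 and 3 of 22, sugar carriers 0 and 3 of 15 and nucleotide sugar carriers 0 and 0 of 5. Over all genes 8.28% were called higher and 11.1% lower, and the falls among metal and vitamin carriers lay near that share. The same shares stand beside the group and family counts below, many of which rest on few genes. By adjusted p value alone the balance turned in carriers of amino acids (13 higher and 10 lower), in metal and haem carriers (11 higher and 8 lower) and in carriers of vitamins, nucleosides, lipids, choline and urea (8 and 4), but not in those of inorganic ions (5 and 12), organic acids, organic ions and peptides (6 and 8) or sugars (3 and 7). The group medians ran from −0.20 for sugars to 0.16 for amino acids. The 5 largest falls, at the left of the plot of log2FC by substrate group, came from 4 groups.

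**Figure D1:**
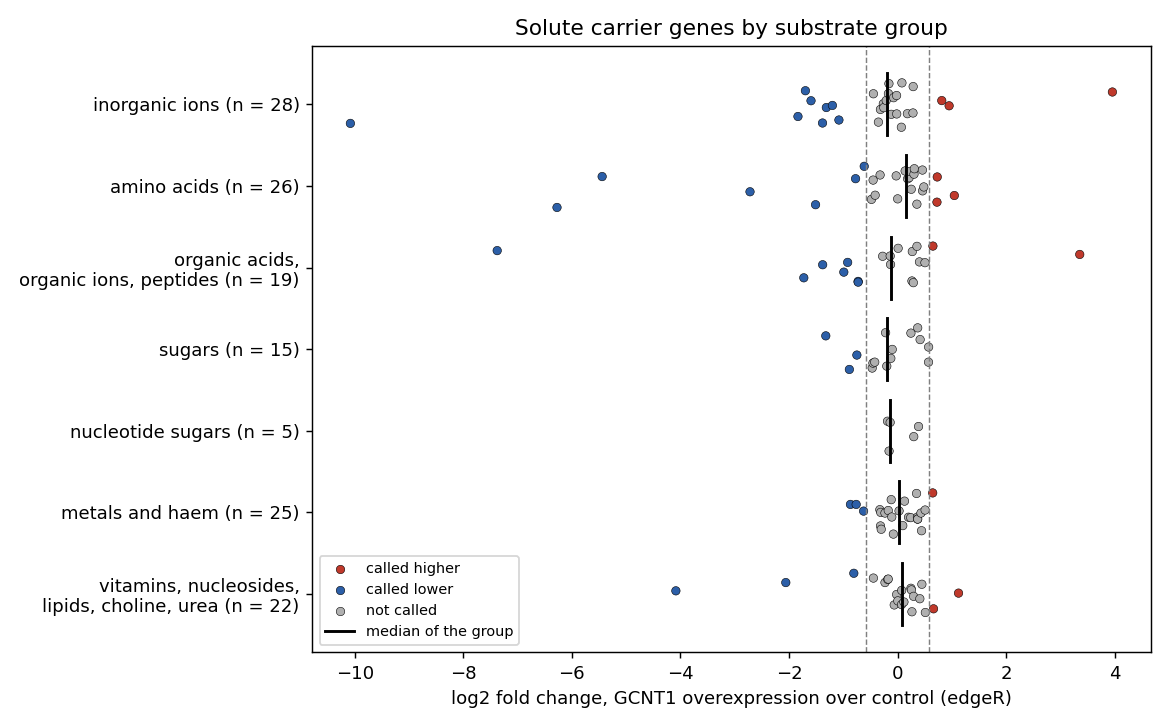
Log2 fold change of each of the 140 solute carrier genes (horizontal axis, edgeR estimate), in rows by substrate group with the number of genes in parentheses. Points are genes, spread vertically for legibility, coloured by call. Black bars are group medians, dashed lines the fold threshold of 0.58. The leftmost point, SLC9A2, had no counts in overexpressing cells, and its position is set by the fit and is no measured fold.

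Carriers of inorganic ions, the group with the most genes tested, held the most falls by count, whereas by share organic acid, organic ion and peptide carriers came first (7 of 19). Of 28 inorganic ion carriers that were tested, 8 were called lower, 3 higher and 17 were not called (median log2FC −0.19), and their summed level went from 1671, 1617 and 1587 CPM in controls to 1332, 1379 and 1395 CPM in overexpressing cells, without overlap. SLC9A2, the sodium/proton exchanger NHE2 of epithelial apical membranes, had 129, 154 and 109 counts in controls and 0 in each overexpressing library. All of its reads were in control cells, at least 46.1-fold lower in overexpressing cells when a floor of 3 counts per library is used (adjusted p value 1.39e-08, edgeR quasi-likelihood with Benjamini-Hochberg). Intervals and floors given here cover counting error only. Of the other 7 sodium/proton exchangers, SLC9A3 was called lower and 6 were not called. Relative to the median log2FC of the 50 nearest analysed genes, a measure taken up again below, SLC9A3 was at −0.13 and no longer called.

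SLC12A2, the sodium-potassium-chloride cotransporter NKCC1 that loads cells with chloride, was, per kb of exon, the most abundant in control cells of the carriers called lower. It had 3074, 2518 and 2316 counts in controls and 719, 1084 and 1006 in overexpressing cells. The lowest control was far above the highest overexpressing library, and the level went from 214 ± 26.3 to 70.8 ± 8.41 CPM (log2FC −1.59 ± 0.09, adjusted p value 1.19e-08 by edgeR). SLC12A8, in the same family, moved the other way: 1, 5 and 1 counts in controls became 33, 49 and 40, a ratio of 16.3 with a 95% counting interval of 7.67 to 41.4. Most of its control counts lay in control library 2, and its log2FC of 3.96 ± 0.39 became 5.08 without that library. It remained a rare transcript in overexpressing cells, at 3.08 ± 0.418 CPM. The potassium-chloride cotransporter SLC12A7 was called lower (93, 95 and 89 counts against 39, 39 and 41), a call lost relative to the genes around it (−0.24), whereas SLC12A4, SLC12A5 and SLC12A9 were not called, with log2FC between −0.35 and −0.16.

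The SLC4 family, most of whose members carry bicarbonate, had 3 calls lower and 1 higher of 8. SLC4A4, the electrogenic sodium bicarbonate cotransporter NBCe1, had 190, 147 and 160 counts in controls and 34, 67 and 63 in overexpressing cells (log2FC −1.70 ± 0.16), and its electroneutral relative SLC4A7 had 1963, 1871 and 1480 against 678, 962 and 1058 (−1.08 ± 0.09). SLC4A11, not known as a bicarbonate carrier, had 594, 559 and 646 against 217, 247 and 275 counts (−1.38 ± 0.09). In all 3 every overexpressing library was below every control. SLC4A5 was called higher (19, 17 and 18 against 24, 45 and 33 counts), a call that was lost without overexpressing library 2, where log2FC was 0.60. MTHFD2, on the opposite strand over it, had a log2FC of 0.44 ± 0.05. The anion exchanger SLC4A2 had 2149, 2068 and 2205 against 2093, 2253 and 2440 counts and its groups overlapped.

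For calcium, the sodium/calcium exchanger SLC8A1 (NCX1) had 385, 346 and 300 counts in controls and 79, 126 and 104 in overexpressing cells (log2FC −1.83 ± 0.11). The potassium-dependent exchanger SLC24A1 had 183, 157 and 147 against 268, 333 and 408 counts (0.95 ± 0.10), and DENND4A, which overlaps it on the other strand, had a log2FC of 0.39 ± 0.08. The 2 exchangers thus differed in direction, each without overlap between groups. The most abundant inorganic ion carrier that was not called was the phosphate carrier SLC20A1, with 3481, 3539 and 3115 counts in controls and 3794, 4644 and 4766 in overexpressing cells (log2FC 0.28 ± 0.05), which passed the test but not the fold threshold.

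**Figure D2:**
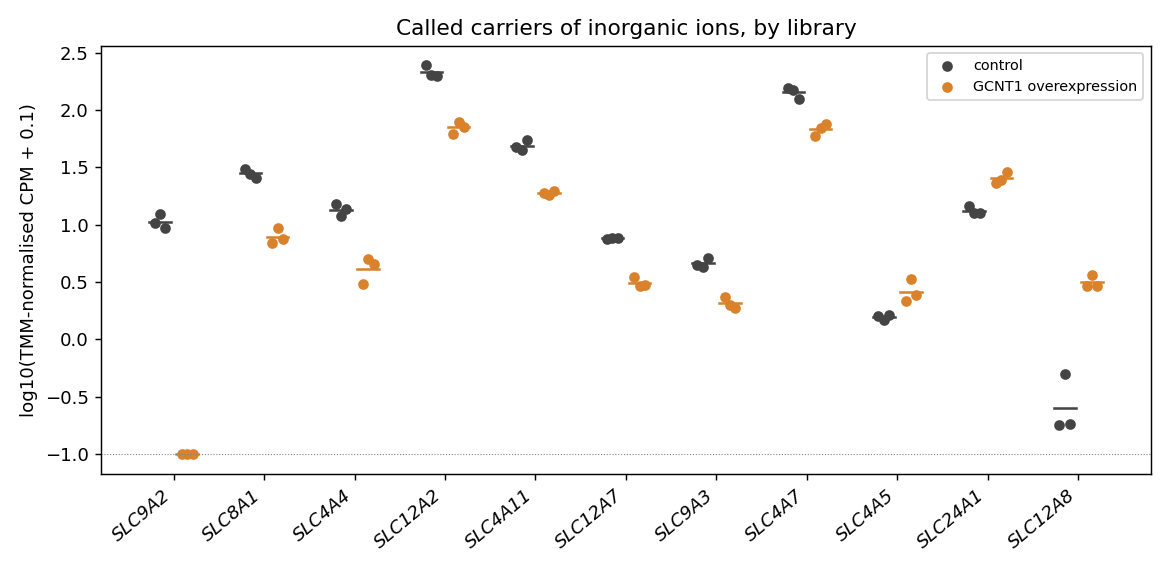
Level of the 11 called inorganic ion carriers in each library, as log10 of TMM-normalised CPM plus 0.1. Points are libraries, horizontal bars the mean of the log values of 3 libraries, and the dotted line the position of 0 CPM. SLC9A2 lies at 0 in all 3 overexpressing libraries, 7 other carriers are lower in overexpressing cells, and SLC4A5, SLC24A1 and SLC12A8 are higher.

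Amino acid carriers moved both ways. Of 26 that were tested, 3 were called higher, 6 lower and 17 were not called, and by adjusted p value alone 13 were higher and 10 lower. Their summed level was 3302, 3274 and 3247 CPM in controls and 3737, 3920 and 3955 CPM in overexpressing cells. SLC7A5 (LAT1), which exchanges large neutral amino acids such as leucine for glutamine, had 3221, 3520 and 3402 counts in controls and 5589, 5828 and 6557 in overexpressing cells. Every overexpressing library was above every control, at 457 ± 30 against 275 ± 17.1 CPM (log2FC 0.73 ± 0.06, adjusted p value 3.01e-07 by edgeR), but relative to the genes around it the log2FC was 0.41 and the call was lost. Its heavy chain SLC3A2 (4F2hc) had 2320, 2410 and 2466 against 3244, 3489 and 3851 counts, also without overlap, and its log2FC of 0.46 ± 0.06 passed the test but not the fold threshold. SLC7A6, another light chain of SLC3A2, stood at 0.30 ± 0.05 on the same scale.

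The light chain SLC7A8 (LAT2) changed in the opposite direction to SLC7A5. It had 130, 117 and 106 counts in controls and 19, 16 and 22 in overexpressing cells (log2FC −2.72 ± 0.17, adjusted p value 2.04e-08 by edgeR). In the controls SLC7A5 already had the higher level per kb of exon, 57.8 against 1.6 CPM per kb. SLC7A1 (CAT1), the carrier of arginine and lysine, rose from 796, 824 and 767 counts to 1134, 1542 and 1563 (log2FC 0.73 ± 0.06), with no overlap. SLC43A1 (LAT3), known as a leucine carrier of prostate cells, had 290, 291 and 286 against 317, 407 and 363 counts (0.23 ± 0.08). SLC43A3, placed in the same family but known to carry purine nucleobases, fell (703, 752 and 737 against 425, 463 and 482 counts).

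In the SLC1 family 3 of 4 carriers were called lower, beside 11.1% of all genes. SLC1A3, the glutamate carrier EAAT1, had 97, 123 and 97 counts in controls and 1, 2 and 1 in overexpressing cells, a ratio of 84.8 (95% counting interval 32.8 to 313). SLC1A1, the neuronal and epithelial glutamate carrier EAAT3, had 348, 324 and 299 against 111, 111 and 142 counts (log2FC −1.51 ± 0.10). SLC1A4 (ASCT1) had 763, 819 and 701 against 465, 532 and 598 counts (−0.61 ± 0.07), close to the fold threshold. Its call was lost without control library 2 (−0.57) and without overexpressing library 2 (−0.58). It was also lost with library size alone as the scale (−0.56) and relative to the genes around it (−0.26). The fourth, the glutamine carrier SLC1A5 (ASCT2), was the most abundant of the family and had 1952, 2165 and 2086 against 2599, 2653 and 2945 counts, so that its log2FC of 0.31 ± 0.06 was of the other sign and not called.

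Sodium-coupled neutral amino acid carriers of the SLC38 family had 1 call among 8. SLC38A3 (SNAT3), a glutamine carrier, had 13, 19 and 24 counts in controls and 1, 0 and 0 in overexpressing cells, a ratio of 59.9 with a 95% counting interval of 10.3 to 2407. Its control level was low, at 1.53 ± 0.499 CPM. SLC38A2 (SNAT2), a carrier known to be induced by amino acid shortage, had 12902, 12182 and 11049 against 12089, 16536 and 16348 counts (log2FC 0.21 ± 0.06), and its relative SLC38A1 had 7715, 7311 and 6386 against 7624, 10840 and 10991 counts (0.36 ± 0.07). Neither reached the fold threshold, and overexpressing library 1 was the lowest of its group in both. In the SLC6 family SLC6A16, an orphan member, was called higher with 26, 26 and 18 against 44, 51 and 60 counts.

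**Figure D3:**
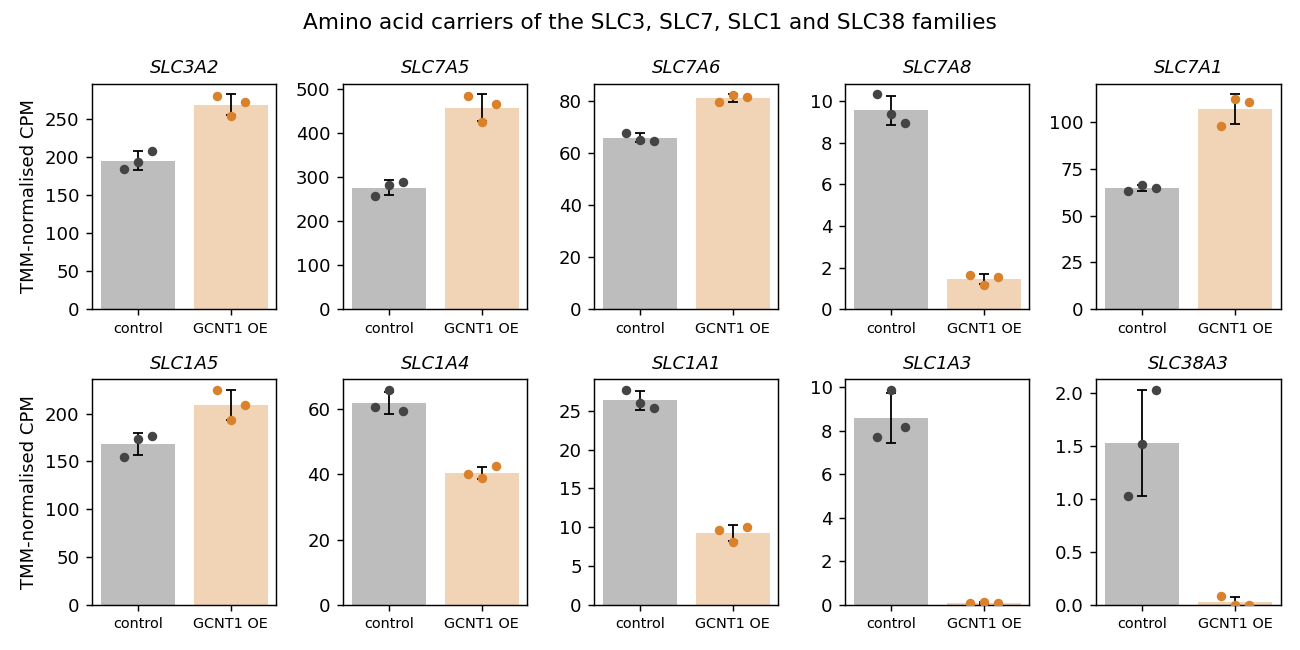
TMM-normalised CPM of 10 amino acid carriers of 4 families in control and GCNT1 overexpressing (GCNT1 OE) cells, each panel with its own linear axis from 0. Bars are means, error bars SD over 3 libraries and points the libraries. SLC3A2, SLC7A5, SLC7A6, SLC7A1 and SLC1A5 are higher in overexpressing cells and SLC7A8, SLC1A4, SLC1A1, SLC1A3 and SLC38A3 lower.

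RefSeq promoter windows, from 250 bases before to 50 bases after 1 start site of each gene on GRCh38.p14, were matched for 112 of the 140 carriers. In 90 the site is the outermost start of the gene in RefSeq, and in 22 it lies inside the gene. The windows were searched on both strands for TGATGNAA (the core of the amino acid response element), CACGTG (E-box), TGCGCNC and TGCACNC (metal response cores), GGGCGG (GC box) and TATAAA, none of which contains another. TGATGNAA occurred in 8 carrier promoters (7.14%), in 1.67% of the promoters of 10236 genes in the table and in 3.67% of 27305 RefSeq promoters. Of 22 amino acid carriers with a window 4 held it (18.2%), namely SLC3A2, SLC7A1, SLC38A1 and SLC1A3. The other 4 were SLC9A9, SLC39A11, SLC27A5 and SLC23A3. The windows of the 4 amino acid carriers are shown because these carriers did not move together: SLC7A1 was called higher, SLC3A2 and SLC38A1 were higher under the fold threshold and SLC1A3 was called lower. The windows lie at chr11:62881449-62881748 on the plus strand for SLC3A2, chr13:29595639-29595938 on the minus strand for SLC7A1, chr12:46266467-46266766 on the minus strand for SLC38A1 and chr5:36596338-36596637 on the plus strand for SLC1A3, and capitals mark the match on either strand. The start site lies 25590 bases inside the gene in SLC3A2 and 2527 bases inside it in SLC38A1, and is the outermost start in SLC7A1 and SLC1A3.
SLC3A2: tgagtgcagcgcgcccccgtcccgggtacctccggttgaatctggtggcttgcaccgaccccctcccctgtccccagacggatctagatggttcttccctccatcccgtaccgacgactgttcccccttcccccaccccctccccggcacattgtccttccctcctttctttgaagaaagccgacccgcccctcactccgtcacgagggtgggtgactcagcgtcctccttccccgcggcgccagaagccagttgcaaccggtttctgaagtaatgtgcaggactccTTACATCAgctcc
SLC7A1: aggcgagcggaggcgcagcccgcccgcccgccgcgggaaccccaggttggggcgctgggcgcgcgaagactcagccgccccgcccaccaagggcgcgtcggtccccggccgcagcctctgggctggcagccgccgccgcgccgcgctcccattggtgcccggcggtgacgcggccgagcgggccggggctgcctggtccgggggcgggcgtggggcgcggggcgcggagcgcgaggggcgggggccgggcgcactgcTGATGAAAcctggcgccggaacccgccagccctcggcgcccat
SLC38A1: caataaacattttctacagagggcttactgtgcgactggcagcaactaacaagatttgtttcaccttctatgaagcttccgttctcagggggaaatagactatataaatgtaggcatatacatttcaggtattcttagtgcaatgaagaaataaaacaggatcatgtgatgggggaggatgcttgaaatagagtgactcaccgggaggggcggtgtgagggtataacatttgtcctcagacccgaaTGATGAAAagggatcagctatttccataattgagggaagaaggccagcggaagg
SLC1A3: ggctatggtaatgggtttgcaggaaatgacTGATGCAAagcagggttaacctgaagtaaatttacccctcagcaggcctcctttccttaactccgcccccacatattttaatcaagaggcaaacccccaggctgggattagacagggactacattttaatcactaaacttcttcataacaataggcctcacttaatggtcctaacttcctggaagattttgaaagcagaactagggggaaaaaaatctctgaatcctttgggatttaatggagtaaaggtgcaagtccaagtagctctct

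The match began 37 bases after the start site of the window in SLC3A2, 7 bases after it in SLC7A1, at −4 in SLC38A1 and at −220 in SLC1A3. The windows of SLC3A2 and SLC7A1 were rich in G and C (62.7% and 82.0%), those of SLC38A1 and SLC1A3 less so (43.3% and 43%). SLC7A5 and SLC38A7 were among 14 carriers (12.5%) holding CACGTG, which 10% of the promoters of table genes held. A match describes the letters in the window and shows neither a bound site nor a cause.

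GC boxes were about as frequent in carriers as in other genes of the table, GGGCGG being found in 68.8% of carrier windows, in 70.7% of those of table genes and in 44.6% of all RefSeq windows. The opposite cotransporters SLC12A2 and SLC12A8 are shown for contrast, at chr5:128083516-128083815 on the plus strand and chr3:125211350-125211649 on the minus strand, the latter at a start site 1349 bases inside the gene. SLC12A2 had 3 matches, in capitals, and SLC12A8 had 0, with G and C contents of 78.7% and 54.7%.
SLC12A2: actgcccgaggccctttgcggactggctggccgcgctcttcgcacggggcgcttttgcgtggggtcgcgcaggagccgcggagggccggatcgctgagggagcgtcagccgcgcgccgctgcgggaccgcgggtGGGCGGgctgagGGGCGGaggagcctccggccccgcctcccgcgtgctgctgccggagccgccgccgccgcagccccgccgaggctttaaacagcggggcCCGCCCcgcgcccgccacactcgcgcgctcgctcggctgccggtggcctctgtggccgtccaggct
SLC12A8: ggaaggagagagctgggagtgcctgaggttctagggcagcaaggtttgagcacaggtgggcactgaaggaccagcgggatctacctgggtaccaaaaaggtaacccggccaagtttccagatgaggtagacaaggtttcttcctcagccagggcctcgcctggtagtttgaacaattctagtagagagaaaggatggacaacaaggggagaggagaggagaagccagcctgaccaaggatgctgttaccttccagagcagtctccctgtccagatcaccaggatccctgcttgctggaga

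TGCGCNC was found in 24.1% of carrier windows and 31.5% of those of table genes, TGCACNC in 12.5% and 11.3%, and TATAAA in 3.57% and 5.57%.

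Among 19 carriers of organic acids, organic ions and peptides 2 were called higher and 7 lower, and the median log2FC was −0.13. SLC47A1, the proton-coupled exporter MATE1 that extrudes organic cations, had 71, 72 and 72 counts in controls and 1, 0 and 0 in overexpressing cells. The ratio was 229.9, with a 95% counting interval of 40.8 to 9124 that is wide because it rests on a single count (adjusted p value 8.18e-09, edgeR quasi-likelihood).

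Organic cation and anion carriers of the SLC22 family had 4 calls lower among 6, beside 11.1% of all genes. SLC22A17, known as a receptor for lipocalin 2, had 293, 305 and 327 against 118, 123 and 139 counts (log2FC −1.38 ± 0.10), and the orphan SLC22A23 had 1270, 1144 and 1137 against 546, 703 and 664 (−0.99 ± 0.06). The falls of SLC22A31 (18, 17 and 24 against 11, 15 and 12 counts) and SLC22A15 (20, 39 and 40 against 15, 25 and 24) were less certain. SLC22A15 was the 1 called carrier with overlapping groups, and both calls were lost with DESeq2 and when control library 3, overexpressing library 1 or overexpressing library 3 was left out. That of SLC22A15 was also lost without control library 2 (log2FC −0.60) and without overexpressing library 2 (−0.82), and with limma-voom. The carnitine carrier SLC22A5 had 214, 197 and 195 against 189, 233 and 231 counts and was not called.

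Monocarboxylate carriers of the SLC16 family went both ways. SLC16A6 rose from 5, 8 and 10 counts to 66, 97 and 93 (log2FC 3.36 ± 0.24, adjusted p value 7.79e-08 by edgeR). ARSG, which lies over it on the opposite strand, had 37, 57 and 37 counts in controls and 107, 128 and 126 in overexpressing cells (log2FC 1.36 ± 0.16). Whether the counting used strand is not given in the sources used here, so that reads of the 2 genes cannot be told apart. SLC16A14 fell from 556, 591 and 494 counts to 265, 313 and 350 (−0.92 ± 0.07), a call lost relative to the genes around it (−0.51). The lactate carrier SLC16A1 (MCT1) had 2232, 2197 and 1971 against 1851, 2118 and 2255 counts and a log2FC of −0.14 ± 0.05. SLC10A7, a member of the bile acid carrier family, was called higher (145, 139 and 121 against 218, 215 and 246 counts), but not relative to the genes around it (0.57).

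Of 22 carriers of vitamins, nucleosides, lipids, choline and urea 2 were called higher and 3 lower. SLC14A1, the urea carrier UT-B, had 758, 745 and 660 counts in controls and 158, 190 and 207 in overexpressing cells. The level went from 58.6 ± 2.44 to 14.1 ± 0.544 CPM (log2FC −2.06 ± 0.07, adjusted p value 9.43e-11 by edgeR), the smallest adjusted p value of the 140 carriers. The choline-like carriers were split: SLC44A5 fell from 42, 35 and 24 counts to 2, 2 and 2, a ratio of 18 (95% counting interval 7.99 to 50.2), whereas the abundant SLC44A2 rose from 2170, 2159 and 2128 counts to 3382, 3647 and 3878 (0.66 ± 0.05). SLC44A1 was not called (log2FC −0.18 ± 0.08). SLC23A3, an orphan of the ascorbate carrier family, was called higher at low counts (7, 10 and 6 against 18, 15 and 21), but not with DESeq2. SLC29A4, a monoamine and nucleoside carrier, fell from 95, 106 and 117 to 71, 65 and 58 counts (−0.81 ± 0.16), while TNRC18, which overlaps it on the other strand, was higher (log2FC 0.52 ± 0.05). The riboflavin carrier SLC52A2 was the most abundant of the group that was not called, with 2012, 2021 and 2151 against 2074, 1949 and 2292 counts.

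Of 15 sugar carriers 3 fell and 0 were called higher, by edgeR, limma-voom and DESeq2 alike, although 5 were higher at an unadjusted p under 0.05 with edgeR. In a group this small, 0 higher cannot be told apart from the 8.28% of all genes called higher. SLC45A1 had 56, 45 and 40 counts in controls and 20 in each overexpressing library (log2FC −1.32 ± 0.20). The proton-coupled inositol carrier SLC2A13 had 184, 156 and 158 against 76, 104 and 108 counts (−0.89 ± 0.11), and the glucose carrier SLC2A12 (GLUT12) had 212, 177 and 176 against 87, 138 and 135 (−0.75 ± 0.12), the latter call being lost relative to the genes around it (−0.34). SLC5A3, a sodium-coupled inositol carrier, was the sugar carrier with the most counts and had 2110, 1758 and 1552 against 2117, 3293 and 3261 counts. Its log2FC of 0.57 ± 0.10 lay just under the fold threshold, as did that of the sugar phosphate exchanger SLC37A1 (0.57 ± 0.13). SLC5A3 shares its span with MRPS6 on the same strand, which had a log2FC of 0.47 ± 0.05. Without control library 1 SLC5A3 was called higher, at 0.69, without overexpressing library 1 at 0.68 and with library size alone as the scale at 0.63. SLC37A1 was called higher without control library 3 or overexpressing library 1, and also with library size alone. SLC45A3, the prostate protein prostein, had few reads (61, 62 and 37 against 71, 74 and 83 counts) and an adjusted p value of 0.0527 by edgeR.

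The nucleotide sugar carriers within the rule, the SLC35A genes that feed Golgi glycosylation, had 0 calls among 5 with edgeR, limma-voom and DESeq2. Of all genes 19.3% were called with edgeR, and 0 among 5 cannot be told apart from that share. With edgeR 3 had an unadjusted p under 0.05 and 2 an adjusted p value under 0.05, both higher. SLC35A1, the CMP-sialic acid carrier, had 328, 321 and 294 against 272, 326 and 306 counts (log2FC −0.16 ± 0.07). The UDP-galactose carrier SLC35A2 had 795, 821 and 804 against 990, 1081 and 1105 counts (0.30 ± 0.06), the UDP-N-acetylglucosamine carrier SLC35A3 had 606, 534 and 486 against 398, 551 and 585 (−0.19 ± 0.08), and SLC35A4 had 1326, 1343 and 1482 against 1317, 1353 and 1355 (−0.14 ± 0.08). The other higher member beside SLC35A2 was SLC35A5 (0.39 ± 0.07). All 5 were under the fold threshold, and their sum was 285.1 to 299.4 CPM in controls and 293.4 to 311.7 CPM in overexpressing cells. They are not the whole SLC35 family: its genes with the letters B to F fall outside the rule and are counted below among carriers with other names.

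Metal and haem carriers had nearly equal sums in the 2 groups, 1964, 1943 and 1910 CPM in controls and 1933, 1963 and 1940 CPM in overexpressing cells, and 21 of 25 were not called. SLC40A1, the iron exporter ferroportin, fell from 128, 117 and 106 counts to 68, 67 and 86 (log2FC −0.76 ± 0.13). The zinc efflux carrier SLC30A4 fell from 101, 81 and 67 to 30, 64 and 52 (−0.87 ± 0.20), and the zinc importer SLC39A10 from 941, 886 and 716 to 469, 647 and 649 (−0.63 ± 0.08). The latter call was lost without control library 1 (log2FC −0.55), without overexpressing library 1 (−0.57) and with library size alone as the scale (−0.568). SLC41A2, a magnesium carrier, was called higher with 143, 139 and 111 against 178, 256 and 225 counts, a call lost without control library 3 (0.57) and without overexpressing library 2 (0.56).

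The zinc importers SLC39A1, SLC39A3 and SLC39A6 stayed under the fold threshold. SLC39A1 (ZIP1) had 2422, 2528 and 2535 counts in controls and 2235, 2460 and 2395 in overexpressing cells (log2FC −0.17 ± 0.06), and SLC39A6 had 1365, 1269 and 1185 against 1123, 1297 and 1453 (−0.08 ± 0.06). The groups overlapped in both, although SLC39A1 passed the test (adjusted p value 0.0234 by edgeR). SLC39A3 had 382, 389 and 389 against 522, 470 and 584 counts (0.35 ± 0.09), without overlap, and also passed the test. SLC39A9, the most abundant metal carrier, had 7529, 7263 and 6775 against 6527, 8533 and 8507 counts (0.03 ± 0.05). SLC30A1, which exports zinc from the cell, had 111, 98 and 81 against 108, 157 and 154 counts (0.43 ± 0.12).

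Per kb of exon the 5 highest carriers in control cells were SLC38A2 at 150.5 CPM per kb, SLC39A9 at 81.9, SLC39A1 at 60.0, SLC38A1 at 57.9 and SLC7A5 at 57.8. The last 3 lie close to each other, and their order was not tested. Of these 5 only SLC7A5 was called. SLC9A2, SLC47A1, SLC1A3, SLC38A3 and SLC44A5, with the largest falls, had control levels between 0.386 and 1.72 CPM per kb.

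Some carriers moved with the genes around them. For each gene the median log2FC of the 50 nearest analysed genes on its chromosome was taken. On chromosome 5, SLC9A3 (chr5:470456-524449) and SLC12A7 (chr5:1050384-1155899) had log2FC of −1.2 ± 0.18 and −1.31 ± 0.14, and the median of the genes around both was −1.07. EXOC3, which overlaps SLC9A3 on the other strand, had a log2FC of −1.47. Relative to its neighbours SLC9A3 stood at −0.13 and SLC12A7 at −0.24. SLC1A3, further along the same chromosome (chr5:36596588-36688334), had a local median of −0.67, far from its own fall. For SLC7A5 the local median was 0.32, leaving 0.41. Taken relative to the local median, 32 of the 41 calls remained, and the calls lost were SLC9A3, SLC12A7, SLC7A5, SLC1A4, SLC2A12, SLC10A7, SLC16A14, SLC22A15 and SLC41A2. Only the log2FC was shifted for this, while the adjusted p value stayed that of the main test. The difference of a carrier from its neighbours was itself not tested. SLC4A8 gained a call, at −0.58. For SLC9A2, SLC47A1, SLC38A3, SLC12A8, SLC16A6 and SLC12A2 the local medians lay between −0.09 and 0.17. What part the shift of the surrounding genes has in these calls was not tested.

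**Figure D4:**
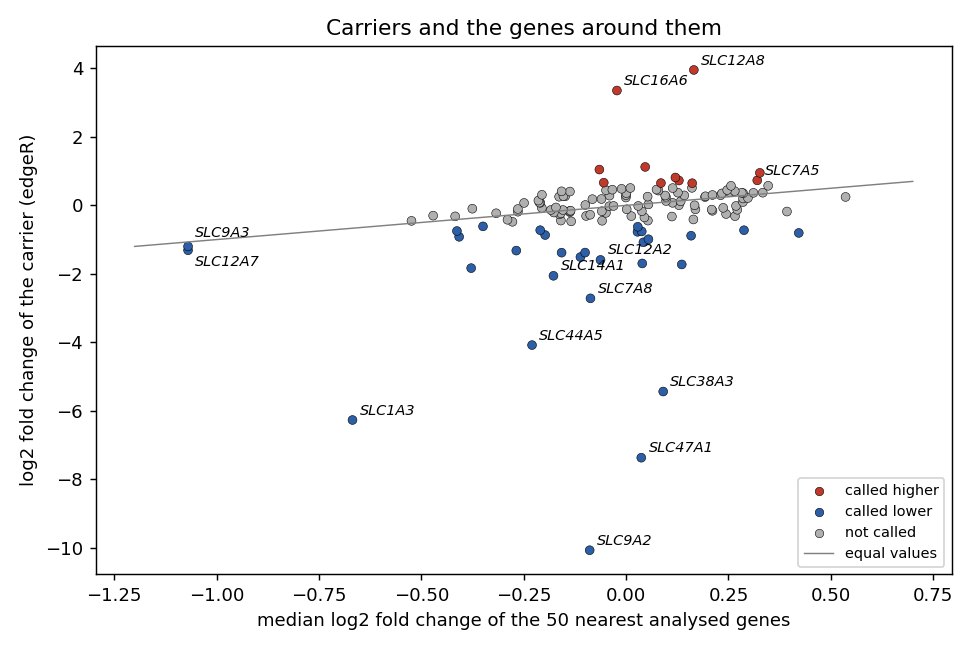
Log2 fold change of each of the 140 carriers (vertical axis, edgeR) against the median log2 fold change of the 50 nearest analysed genes (horizontal axis). Points are genes coloured by call, and the grey line marks equal values. SLC9A3 and SLC12A7 lie close to the line at the far left, and the carriers with the largest rises and falls lie far from it.

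Proteins that act with the carriers, 22 genes of which 20 were in the table, had 2 called higher and 4 lower, beside 8.28% and 11.1% of all genes, with a median log2FC of 0.11. By adjusted p value alone 9 were higher and 7 lower. EMB, encoding embigin, had 298, 268 and 294 counts in controls and 0 in all 3 overexpressing ones. With a floor of 3 counts per library this is at least 101.5-fold lower. BSG, encoding basigin, the other chaperone of monocarboxylate carriers, had 5234, 5370 and 5345 against 7004, 7261 and 7350 counts (log2FC 0.35), under the fold threshold. The arrestins that control glucose carriers moved in opposite directions: TXNIP fell from 2121, 2007 and 2085 counts to 986, 1229 and 1230 (log2FC −0.95), and ARRDC4 went from 2, 0 and 1 counts to 39, 36 and 52, a ratio of 39.6 (95% counting interval 13.2 to 194). Also called were ATP1B1 of the sodium pump (higher, log2FC 0.82), the kinase SGK1 (lower, −0.73) and the carbonic anhydrase CA9, with 30, 23 and 32 against 2, 0 and 3 counts. The cotransporter kinases WNK1, STK39 and OXSR1 were not called.

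Of 32 carriers with other names, 27 were in the table, 1 was called higher (FLVCR2, log2FC 0.69) and 2 lower (beside 8.28% and 11.1% of all genes), with a median log2FC of 0.06. By adjusted p value alone 5 were higher and 9 lower, among them SLC35D2 (log2FC 0.56), SLC35F6 (−0.52) and SLC35F2 (−0.51) just under the fold threshold. ANKH, a membrane protein known for the export of pyrophosphate, fell from 727, 669 and 637 counts to 87, 102 and 90 (−2.96), and SLCO5A1 from 48, 43 and 38 to 10, 12 and 16 (−1.85). Of the 4 carriers left out by the rule 3 were in the table. The lactate exporter SLC16A3 was called lower (4993, 4957 and 5074 against 2621, 2744 and 2947 counts, log2FC −0.95), and SLC2A1 (−0.41) and SLC7A11 (−0.14) were not called.

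Of the 140 carriers 69 overlap a gene annotated on the opposite strand, 19 of the called ones among them, and for these the counts may hold reads of both genes.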

How the data were processed

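Per the study's methods, RNA of 3 control and 3 GCNT1 overexpressing PC3 libraries was made into stranded mRNA libraries, and single reads were trimmed with Cutadapt, mapped to hg38 with HISAT2 and assigned to genes with featureCounts. The authors deposited raw counts per gene, with no normalization and no pooling. The gene annotation, the low-count filter and the strand setting are not given in the sources used here. Symbols and positions came from RefSeq (GRCh38.p14) by Entrez ID, which matched 12661 of 12703 genes. Exon lengths and overlaps came from GENCODE.

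Counts were fitted in R 4.3.3 with edgeR 4.0.16 (filterByExpr, which kept all 12703 genes, TMM factors, quasi-likelihood test, Benjamini-Hochberg adjustment). The SE is the absolute log2FC over the square root of F. Biological coefficient of variation was 0.0515. The first principal component held 89.3% of variance and separated the groups, and libraries within a group differed by more than sampling noise (chi-square per degree of freedom 1.65 to 5.61). A count of 3 corresponds to 0.213 to 0.259 CPM. Counting intervals are exact binomial at 95%. An exact permutation test of 3 against 3 libraries cannot go below p = 0.1, so none was run. The fitting code was tested on simulated data.

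Counts in every library were printed for the 12 largest rises and falls with groups apart, for fixed carriers of amino acids, zinc, iron, lactate and nucleotide sugars, for the 5 highest per kb of exon and for the most abundant uncalled carrier of each substrate group. Some of these carriers and some listed markers are not reported here, but remain in the totals. Further carriers, and the promoters shown, were chosen after their values were seen. The members, lists, substrate groups and motifs were chosen with earlier results of these data known. Alternatives were limma-voom (limma 3.58.1), DESeq2 1.42.0, RLE factors in edgeR, scaling to library size, testing without a filter, a minimum of 10 counts in every library, a replicate block, leaving out each library in turn, and the local median.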

Additional observations from a re-analysis of the deposited data

How the results depend on the processing

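Across 14 alternative settings the carriers called ranged from 33 to 41, with 8 to 13 higher and 25 to 30 lower, and of 59 carriers 775 values kept direction and side of the threshold, 32 lost the call, 3 gained it and 8 changed sign. The calls lost were of SLC22A15, SLC22A31, SLC23A3, SLC1A4, SLC39A10, SLC41A2, SLC4A5 and those given with the local median. Calls were gained by SLC5A3, SLC37A1, SLC27A5 and SLC16A13, beside SLC4A8 with the local median, counting all 140 carriers. DESeq2 called 10 higher and 28 lower, library size alone 13 and 27. With a minimum of 10 counts in every library (8 and 25) the carriers with few counts in 1 group drop out by construction, and GCNT1 has no value. Among genes with a mean of at least 10 CPM, an alternative chosen after seeing the data, 6 of 104 carriers were called higher (5.77%) and 15 lower (14.4%). Of all 9584 genes at that level, 5.26% were called higher and 7.98% lower, 1269 in all. Under 10 CPM, 5 of 36 carriers were called higher (13.9%) and 15 lower (41.7%), beside 17.6% and 20.5% of 3119 genes. Counts on either side are smaller because fewer genes enter, and a fall or rise itself bears on that mean. The log2FC of GCNT1 was 0.98 with DESeq2, not called (adjusted p value 0.0821, 0.011 to 0.269 over all alternatives), and 0.49 to 1.21 leaving out 1 library, not called without control library 1 or 3 or overexpressing library 3. The carriers' median log2FC was −0.0092 with library size alone, −0.018 relative to the local median and −0.10 to −0.028 leaving out 1 library. Among the 59 carriers, the sign changed relative to the local median, for values not called, in SLC35A3 (0.079), SLC35A4 (0.018), SLC16A1 (0.048) and SLC39A6 (0.13). It also changed in SLC52A2 (0.11), SLC39A9 (−0.027) and SLC38A2 (−0.084). Outside the 59, other uncalled carriers changed sign too, such as SLC5A6 (−0.45 to 0.071) and SLC48A1 (0.20 to −0.084). SLC52A2 ranged from −0.14 to 0.029 leaving out 1 library. The cause was not tested. With the replicate number as a replicate block, 11 carriers were called higher and 29 lower, of 2423 genes, SLC22A31 being lost. Same-numbered libraries correlated at −0.27, −0.0024 and −0.11 in their deviations from the group means, so the numbers do not pair the libraries. Depth limits carriers under the floor of 3 counts in 1 group to a bound or a wide ratio.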
